A study of Homo sapiens with 16 samples.

Results

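The clustered protocadherins are 53 neighbouring protein-coding genes on human chromosome 5, taken here as the RefSeq genes of that chromosome whose symbols begin with PCDHA, PCDHB or PCDHG. They are 53 of 19970 protein-coding genes annotated on chromosomes 1 to 22 and X. The alpha cluster has 15 genes (13 PCDHA genes and the 2 C-type genes PCDHAC1 and PCDHAC2) and spans 226.2 kb at chr5:140786140-141012347 in GRCh38. The beta cluster has 16 genes over 198.0 kb at chr5:141051374-141249365. The gamma cluster has 22 genes (12 PCDHGA, 7 PCDHGB and 3 PCDHGC) over 182.5 kb at chr5:141330514-141512975. The question asked of the data was where the Polycomb protein EZH2, its cofactor JARID2 and the histone mark H3K27me3 were called over these genes in 2 liver cell lines.

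Clustered protocadherins are cell-surface adhesion molecules of the cadherin superfamily, best known from neurons, where each cell uses a different small set of them and so carries its own surface identity. In the alpha and gamma clusters every gene has its own first exon with its own promoter, which codes for the extracellular and transmembrane parts. That exon is spliced to constant exons shared by the whole cluster, so all genes of these clusters have a common end. Beta genes are single-exon genes with no shared end. The C-type genes, which stand last in the alpha and gamma clusters, differ from the others in sequence and in how their promoters are used. Polycomb repressive complex 2 methylates lysine 27 of histone H3 through its catalytic subunit, EZH2, with JARID2 as a DNA-binding partner. The trimethylated form, H3K27me3, is found on silenced genes.

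Chromatin immunoprecipitation with sequencing (ChIP-seq) was done on HepG2, a liver carcinoma cell line, and THLE-2, a non-tumour liver epithelial line that was immortalised with a viral antigen. JARID2 was precipitated in both lines, and EZH2 and H3K27me3 in THLE-2, each in 2 replicates described as biological, with a matched input library for each precipitate. All cells were fixed with formaldehyde, and no genotype or drug treatment distinguishes the groups. The protocol text carries the same antibody sentence, catalogue number included, for 15 of the 16 samples, all but the first HepG2 JARID2 library, so the target of each library rests on its title and antibody label. The values used are peak lists, which hold no expression, so the identity of the lines could not be checked against marker genes.

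The precipitates were represented by 7945155 and 14627883 tags (mapped reads) for HepG2 JARID2, 11703738 and 12988783 for THLE-2 JARID2, 29593777 and 32444241 for EZH2, and 39047005 and 38091806 for H3K27me3. The lists differed greatly in length within some groups. HepG2 JARID2 had 15738 and 4090 peaks, THLE-2 JARID2 5356 and 5532, EZH2 2112 and 3690, and H3K27me3 46198 and 90524. All H3K27me3 peaks of both replicates, and all peaks of the second HepG2 JARID2 library, carry a false discovery rate of 100% in the deposited lists, a rate that MACS estimates by swapping precipitate and input. Its part in the results was not tested. A gene counts as having a peak when any peak touches the 4 kb that reach 2 kb to either side of its start, the side of its variable first exon.

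Each gene's promoter was looked up in a RefSeq table of GRCh38, and 46 of the 53 genes had an entry at the annotated gene start. The 250 bases before the start are shown for 5 genes that recur in the results. PCDHGA1 is the first gene of the gamma cluster, PCDHGA3 and PCDHGB1 are the 2 gamma genes whose H3K27me3 peaks ranked highest across both replicates, PCDHGC3 is the C-type gene with a JARID2 peak in HepG2, and PCDHA1 opens the alpha cluster. Capitals mark CGCT, or AGCG where it lies on the other strand, the letters at the core of the conserved sequence element of clustered protocadherin promoters. All are on the plus strand and read 5′ to 3′, at chr5:141330264-141330513, chr5:141343579-141343828, chr5:141349849-141350098, chr5:141475716-141475965 and chr5:140785890-140786139.
PCDHGA1: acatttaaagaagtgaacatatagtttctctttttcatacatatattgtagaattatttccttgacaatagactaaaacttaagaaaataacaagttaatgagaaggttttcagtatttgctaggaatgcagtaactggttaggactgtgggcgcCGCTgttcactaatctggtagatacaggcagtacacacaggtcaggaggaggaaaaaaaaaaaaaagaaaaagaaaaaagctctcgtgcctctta
PCDHGA3: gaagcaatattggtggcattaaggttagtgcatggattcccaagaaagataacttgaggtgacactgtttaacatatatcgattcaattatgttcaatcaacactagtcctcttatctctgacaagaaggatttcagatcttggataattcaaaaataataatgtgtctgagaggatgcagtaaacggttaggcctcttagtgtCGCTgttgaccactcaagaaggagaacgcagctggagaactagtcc
PCDHGB1: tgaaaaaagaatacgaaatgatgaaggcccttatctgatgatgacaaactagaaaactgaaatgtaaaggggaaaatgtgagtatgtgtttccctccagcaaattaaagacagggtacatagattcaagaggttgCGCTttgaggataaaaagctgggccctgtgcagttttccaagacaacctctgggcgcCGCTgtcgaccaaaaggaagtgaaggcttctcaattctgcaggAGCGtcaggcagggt
PCDHGC3: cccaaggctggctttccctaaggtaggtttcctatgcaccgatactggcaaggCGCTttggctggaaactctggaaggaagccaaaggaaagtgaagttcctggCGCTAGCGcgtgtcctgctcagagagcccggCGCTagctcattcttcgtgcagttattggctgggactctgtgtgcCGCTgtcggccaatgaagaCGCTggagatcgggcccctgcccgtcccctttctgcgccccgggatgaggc
PCDHA1: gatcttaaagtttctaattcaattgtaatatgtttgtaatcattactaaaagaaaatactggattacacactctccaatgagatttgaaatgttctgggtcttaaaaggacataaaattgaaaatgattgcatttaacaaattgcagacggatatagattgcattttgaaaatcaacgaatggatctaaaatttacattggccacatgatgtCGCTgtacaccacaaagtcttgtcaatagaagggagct
Read towards the start, the last CGCT on the gene's own strand begins 95 bases before it in PCDHGA1, 46 in PCDHGA3, 58 in PCDHGB1, 51 in PCDHGC3 and 38 in PCDHA1. PCDHGC3 has 6 copies on both strands in the printed bases, PCDHGB1 has 3, and the other 3 genes have 1 each.

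H3K27me3 was the only one of the 4 precipitated groups with a peak at a clustered protocadherin start in both replicates. It had one at 15 of the 53 genes (28.3%), where 4.35% of all coding genes had one. Of these 15 genes, 14 were gamma genes, 1 was a beta gene and none was an alpha gene. In single libraries the mark was called at 17 genes in replicate 1 and 29 in replicate 2, beside 5.07% and 15.7% of all coding genes. These shares are descriptions, since neighbouring genes share libraries and sometimes peaks and are not replicates.

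**Figure D1:**
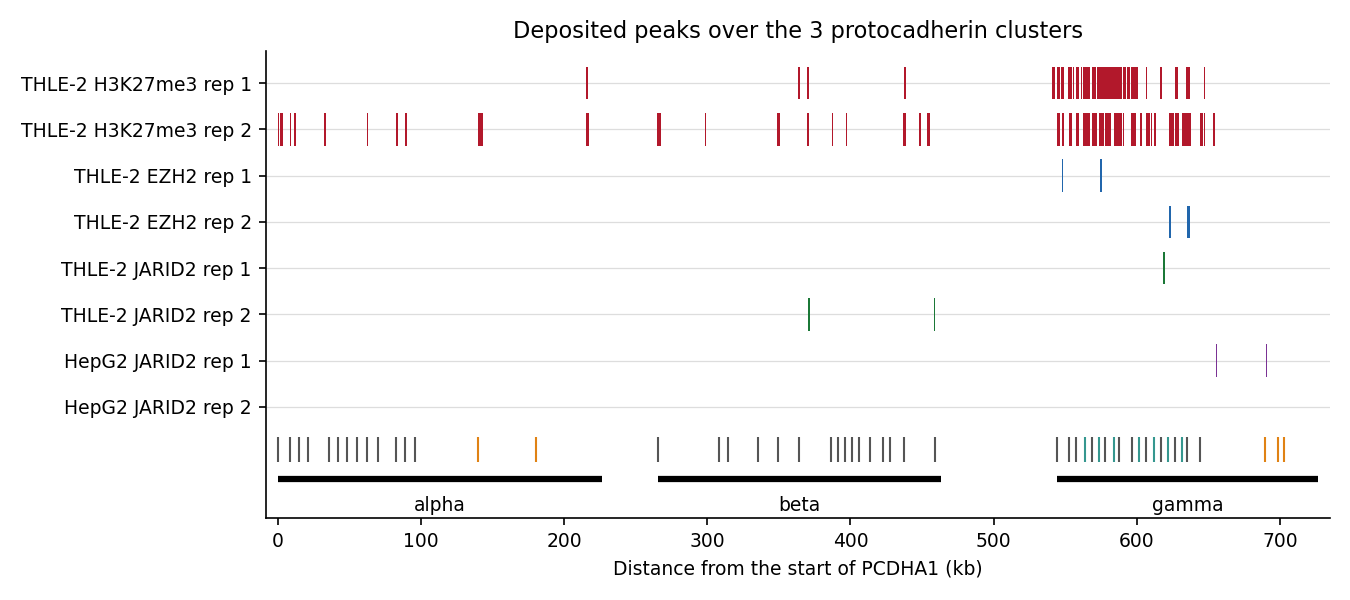
Position along the 3 clusters (x axis, kb from the start of PCDHA1) of the peaks in each of the 8 libraries (rows), with gene starts as ticks; narrow peaks are widened so that they can be seen. The H3K27me3 rows are dense over the gamma cluster in both replicates, where 21 and 29 peaks lie, and are sparse over the alpha and beta clusters in replicate 1.

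The gamma cluster carried a run of H3K27me3 that reached nearly the same extent in both replicates. Peaks covered 28.7% of its bases in replicate 1 and 29.4% in replicate 2, a mean of 29.1% ± 0.52 (SD, n = 2). The genome-wide share covered by the same lists was 3.02% and 5.04%, so the 2 lists differed over the genome and not over the gamma cluster. From the start of PCDHGA1 to the start of PCDHGC3 the share was 36.0% and 36.9%. The first peak inside the cluster began near the PCDHGA1 start in both lists. Replicate 1 had a further peak just before the cluster, at chr5:141326710-141329331 with a fold of 14.48, for which replicate 2 had none. The last peak ended 103.3 kb after the PCDHGA1 start in replicate 1, and 110.6 kb after it in replicate 2.

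**Figure D2:**
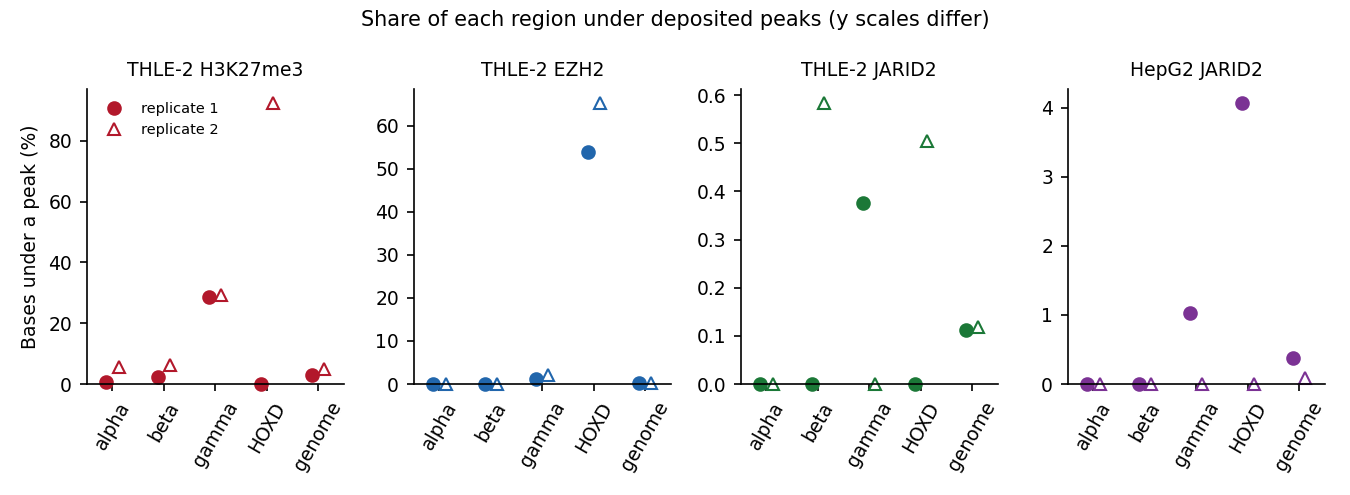
Percent of bases covered by peaks (y axis) in the alpha, beta and gamma clusters, in the HOXD cluster and over the genome. Each group has its own panel and y scale, with 1 point for each replicate. The 2 H3K27me3 points lie together in the gamma cluster, at 28.7% and 29.4%, and far apart in HOXD, at 0% and 92.4%.

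The individual peaks agreed less closely than that share. Of the 21 gamma peaks of replicate 1, 17 (81.0%) overlapped a peak of replicate 2, and 21 of the 29 peaks of replicate 2 (72.4%) overlapped one of replicate 1. Across the genome 72.1% and 40.3% did. Bases called in both lists made up 52.3% of the bases called in either in the gamma cluster, 19.0% in the beta cluster, 9.62% in the alpha cluster and 30.4% across the genome.

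Within the gamma cluster the mark was called at the PCDHGA and PCDHGB genes and not at the PCDHGC genes. A-type genes had a start peak in both replicates at 10 of 12, namely PCDHGA1 to PCDHGA8, PCDHGA10 and PCDHGA11, and B-type genes at 4 of 7, namely PCDHGB1 to PCDHGB4. PCDHGB4 counts in replicate 1 only through a peak at chr5:141381910-141386896, which covers the PCDHGA7 start and ends before that of PCDHGB4. Its summit lies at -4153 bp from the PCDHGB4 start. PCDHGA9 had a start peak in replicate 1 alone, and PCDHGA12, PCDHGB5, PCDHGB6 and PCDHGB7 in replicate 2 alone. So each of the 19 A-type and B-type genes had a peak in at least 1 library. The share of all coding genes with a peak in at least 1 library was not computed. It was 5.07% in replicate 1 and 15.7% in replicate 2.

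**Figure D3:**
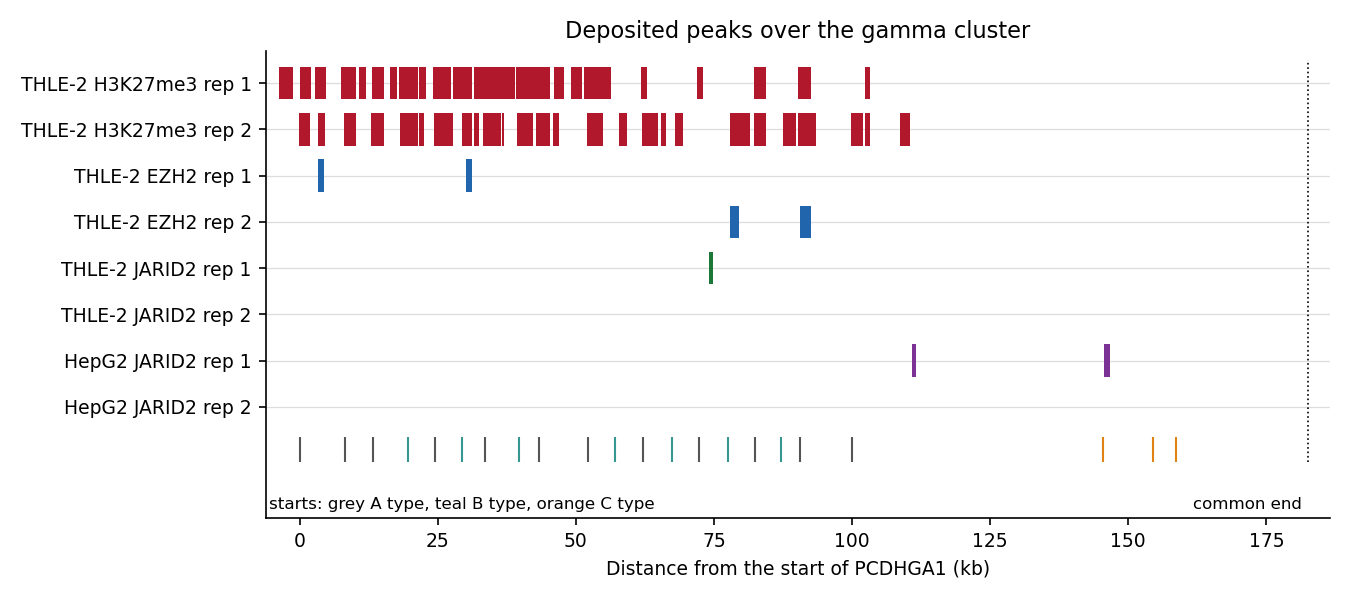
The gamma cluster in detail, with position from the start of PCDHGA1 in kb (x axis), the peaks of each library as a row, and gene starts as ticks coloured by type. H3K27me3 peaks stand at most A-type and B-type starts. No H3K27me3 or EZH2 peak lies over the stretch that holds the 3 C-type starts, where HepG2 JARID2 replicate 1 has a peak.

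PCDHGA1 had the start peak of greatest fold in the gamma cluster in replicate 1. The authors' fold enrichment over local input was 20.63 in replicate 1 (chr5:141330657-141332528, rank 148 of 46198) and 10.15 in replicate 2 (chr5:141330411-141332486, rank 20784 of 90524). The peak stood near the top of the first list and not of the second. PCDHGA3 had a fold of 16.44 in replicate 1 and 13.43 in replicate 2, at ranks 945 and 5142. PCDHGB1 had 17.15 at chr5:141349685-141351889 in replicate 1 and 14.15 at chr5:141349793-141351889 in replicate 2, at ranks 738 and 3633. The PCDHGB1 peaks of both lists end on the same base. PCDHGA10 had a fold of 11.82 in replicate 1 and 12.33 in replicate 2, at ranks 8317 and 8517. The summits of these peaks lay 248 and 1739 bp after its start.

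PCDHGA7 and PCDHGB3 complete the 6 gamma genes named by rank, and their values rest in part on peaks of the genes before them. PCDHGA7 had 10.51 in replicate 1, from a peak whose summit lies at -2542 bp from its start, and 11.25 in replicate 2, from a peak with its summit 793 bp after the start. PCDHGB3 had 9.1 in replicate 1, from a 7461 bp peak that also touches the window of PCDHGA5, and 14.21 in replicate 2, from a peak that covers its own start and also touches the window of PCDHGA6. Such sharing was limited: 3 of 19 start peaks in replicate 1 and 4 of 24 in replicate 2 touched the windows of 2 gamma genes. Gamma starts lie a median of 4973 bp apart, so a wide peak easily reaches a second window.

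The order of the gamma genes by fold was not shared between replicates. Over the 14 genes with a start peak in both, folds ran from 5.38 to 20.63 in replicate 1 (median 9.1) and from 6.58 to 14.21 in replicate 2 (median 11.84), and Spearman's rho between them was 0.0187 across genes, some of which share a peak. The medians of all peaks in the lists were 9.4 and 8.17. The highest peak of the cluster in replicate 2 was not at a start window but between PCDHGA1 and PCDHGA2, at chr5:141333867-141335064 with a fold of 25.87, rank 20 of the list. Replicate 1 had a peak with a fold of 15.18 over nearly the same bases, chr5:141333352-141335235. This peak was singled out after its values were seen.

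The positions of summits, the highest points of the peaks, were set against the gene starts. Measured from the nearest start before it, a distance that is positive by construction, the summit of a gamma peak lay at a median of 1710 bp in replicate 1 and 1699 bp in replicate 2. It fell within 3 kb of that start for 15 of 21 and 22 of 29 peaks. Since the starts lie close together, 55.2% and 51.6% of all bases from the PCDHGA1 start to the end of the last peak are within that distance, and the difference was not tested. Those first 3 kb, which reach past the start into the gene body, were covered over a median of 67.2% of their length in A-type genes in replicate 1 and 82.0% in replicate 2.

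**Figure D4:**
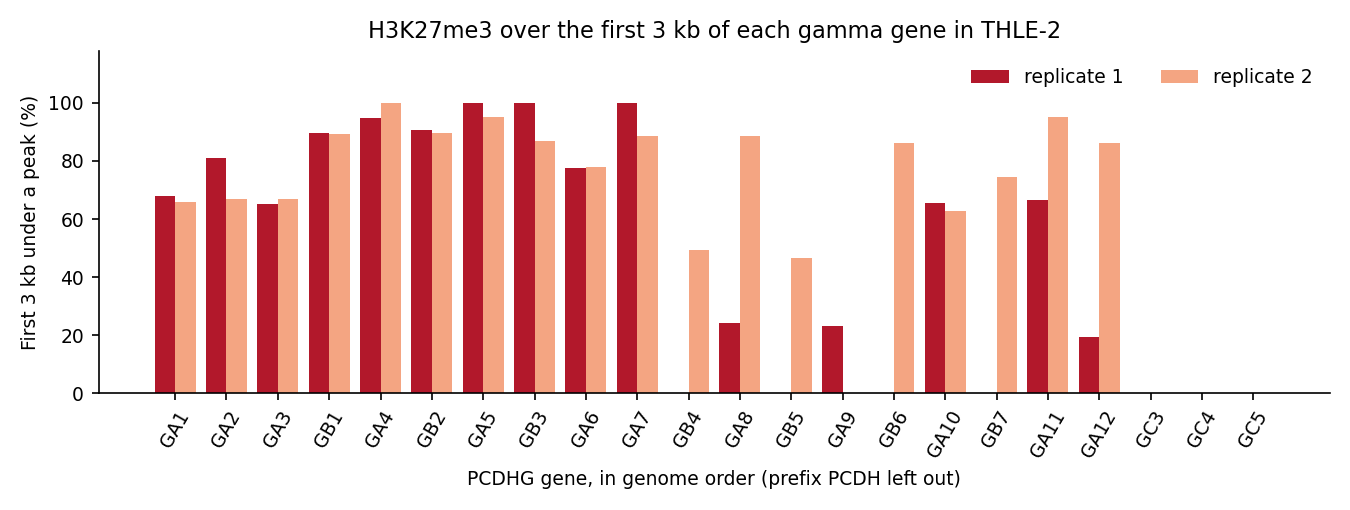
Percent of the first 3 kb of each gamma gene (x axis, in chromosomal order) covered by H3K27me3 peaks (y axis), 1 bar for each replicate. The genes from PCDHGA1 to PCDHGA7 are covered in both replicates, the bars of several genes differ from PCDHGB4 on, and the 3 C-type genes are at 0.

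The first 10 genes of the gamma cluster, PCDHGA1 to PCDHGA7 with PCDHGB1 to PCDHGB3 among them, were alike in both replicates. Their first 3 kb were covered over at least 65.2% in replicate 1 and 65.8% in replicate 2. PCDHGA5, PCDHGB3 and PCDHGA7 were covered from end to end in replicate 1, and PCDHGA4 in replicate 2. From PCDHGB4 on the replicates parted. PCDHGB4, PCDHGB5, PCDHGB6 and PCDHGB7 were at 0 in replicate 1 and at 49.3%, 46.7%, 86.2% and 74.5% in replicate 2. PCDHGA9 went the other way, at 23.2% in replicate 1 and 0 in replicate 2. PCDHGA10 was again the same in both, at 65.6% and 62.6%. Because of these 4 genes the B-type median was 0 in replicate 1 and 86.2% in replicate 2, and an A-type to B-type difference seen in 1 list was not seen in the other.

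The C-type genes lay outside the run. PCDHGC3, PCDHGC4 and PCDHGC5 had no H3K27me3 and no EZH2 peak at their starts in any library, and peaks covered 0 of the bases from the PCDHGC3 start to the common end of the cluster. The last H3K27me3 peak lay 42.1 kb before the PCDHGC3 start in replicate 1 and 34.9 kb before it in replicate 2. After the run, the next peak came 346.5 kb further along the chromosome in replicate 1 and 247.1 kb in replicate 2. In the alpha cluster PCDHAC1 had a peak in replicate 2 alone, chr5:140925753-140929428, which was broad, with 1116 tags and a fold of 5.07. PCDHAC2 had none.

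No library had a peak within 2 kb of the common end of either the alpha or the gamma cluster. This holds for all 8 lists. The nearest preceding H3K27me3 peak was 9.61 and 8.52 kb before the alpha common end and 79.2 and 71.9 kb before the gamma common end. The peak closest to the alpha end was found in both lists and was the single alpha peak of replicate 1, at chr5:141001496-141002734 with a fold of 9.57 and at chr5:141001323-141003825 with a fold of 10.34.

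Alpha genes had no start peak in replicate 1 and 6 of 15 in replicate 2, beside 5.07% and 15.7% of all coding genes. Coverage of the alpha cluster was 0.548% and 5.69%, a mean of 3.12% ± 3.64 (SD, n = 2), so the spread between replicates was larger than the mean. The genome-wide shares of the same lists were 3.02% and 5.04%, so alpha coverage was below that share in replicate 1 and near it in replicate 2. PCDHA1 and PCDHA2 had the highest folds of the 6, at 10.91 and 17.78, and the PCDHA2 peak stood at rank 691 of 90524. PCDHA9, PCDHA11, PCDHA12 and PCDHAC1 had folds between 5.07 and 8.08. The strongest start peaks of the 5 PCDHA genes were 522 to 938 bp wide, with summits 70 to 190 bp after the start, and that of PCDHAC1 was 3676 bp wide. Other alpha peaks of replicate 2 lay away from the starts. A peak with its summit 3161 bp after the PCDHA1 start had a fold of 11.72, above that of the peak on the start itself.

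Beta genes had a start peak at 2 and 5 of 16 in replicates 1 and 2, beside 5.07% and 15.7% of all coding genes. Only PCDHB14 was in both, with a fold of 10.62 at chr5:141223377-141224823 and 6.87 at chr5:141223176-141224680. Each of these peaks held 60 tags. PCDHB6 was called in replicate 1 alone, with a fold of 7.37. PCDHB1, PCDHB5, PCDHB7 and PCDHB16 were called in replicate 2 alone, with folds of 5.17 to 9.69. The first beta gene, PCDHB1, was thus called once (fold 5.17), and the last, PCDHB15, had no H3K27me3 peak. Coverage of the beta cluster was 2.35% and 6.41%, or 4.38% ± 2.87 (SD, n = 2), near the genome-wide shares of 3.02% and 5.04%.

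EZH2, the enzyme that places the mark, had a peak in the gamma cluster in each library, but at no gene in both. There was 1 gene with a start peak in replicate 1 and 2 in replicate 2, where 5.51% and 6.04% of all coding genes had one. Both replicates had a start peak at 0 of the 53 genes, beside 4.57% of all coding genes. In replicate 1 the peaks were at chr5:141333809-141334919, between PCDHGA1 and PCDHGA2 (fold 9.17), and at chr5:141360590-141361769 in PCDHGB2 (fold 5.6). In replicate 2 they were at chr5:141408495-141410049 in PCDHGB6 (fold 6.0) and at chr5:141421014-141423097 in PCDHGA11 (fold 4.4). All 4 have a false discovery rate of 100%, which is also the median of each whole EZH2 list. The 2 lists share no peak here.

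All 4 EZH2 peaks lay inside the H3K27me3 run. Each overlapped an H3K27me3 peak of replicate 2, and 3 of the 4 overlapped one of replicate 1. Genome-wide, 66.4% and 49.3% of EZH2 peaks overlapped the second H3K27me3 list and 9.95% and 12.4% the first. Coverage of the gamma cluster by EZH2 peaks was 1.26% and 1.99%, and that of the alpha and beta clusters was 0 in both replicates. Over the genome the same EZH2 lists covered 0.243% and 0.279%. The antibodies, depths and lists differ, so EZH2 and H3K27me3 coverage are set side by side only.

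The clusters held 2 and 0 JARID2 peaks in the HepG2 replicates and 1 and 2 in the THLE-2 replicates, and none recurred. HepG2 JARID2 had a start peak at 1 gene in replicate 1 and 0 in replicate 2, beside 19.6% and 0.401% of all coding genes. THLE-2 JARID2 had 1 gene in each replicate, beside 3.14% and 3.44%. No gene was called in both replicates of either line, where 0.0901% of all coding genes were in HepG2 and 0.255% in THLE-2. A count of 0 among 53 genes cannot be told apart from shares this low. Over the coding genes with an annotated strand alone, the shares called in both replicates were 0.0695% for HepG2 JARID2, 0.228% for THLE-2 JARID2, 3.99% for EZH2 and 3.70% for H3K27me3.

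The HepG2 gene was PCDHGC3, with a peak at chr5:141476168-141477251 of 19 tags, a fold of 12.08 and a false discovery rate of 0.35%. PCDHGC3, like PCDHGC4, PCDHGC5 and PCDHAC2, had no H3K27me3 or EZH2 call at its start in THLE-2. Neither H3K27me3 nor EZH2 was measured in HepG2. In THLE-2 replicate 1 the gene was PCDHGA9, at chr5:141404586-141405269. This peak had 14 tags, a fold of 12.69 (rank 88 of 5356) and a false discovery rate of 15.64%. Its summit lies 2210 bp after the start, and PCDHGA9 is the A-type gene whose first 3 kb held no H3K27me3 call in replicate 2. In THLE-2 replicate 2 the gene was PCDHB15, at chr5:141244171-141244801, before the start and over the end of the pseudogene PCDHB19P. That peak had 13 tags, a fold of 9.35 and a false discovery rate of 44.86%.

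JARID2 is the target that was mapped in both lines, so it allows the one comparison between them. Peaks covered 0.308% and 0 of the 606.7 kb of the 3 clusters in HepG2, and 0.113% and 0.190% in THLE-2. The means were 0.154% ± 0.218 and 0.152% ± 0.0549 (SD, n = 2 each), and HepG2 minus THLE-2 was 0.00239 percentage points. An exact two-sided permutation test over the 4 libraries gave p = 1.0, and 0.333 is the smallest p that 2 against 2 allows. The THLE-2 values lie between the HepG2 values.

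The HOXD cluster, an array of developmental transcription factor genes that is a classic Polycomb target, shows how the same lists look elsewhere. EZH2 peaks covered 53.8% and 65.2% of it and stood at 7 of 9 HOXD starts in both replicates. H3K27me3 covered 0% in replicate 1 and 92.4% in replicate 2, with 0 and 9 of the 9 starts called. In the gamma cluster EZH2 covered 1.26% and 1.99%, and H3K27me3 28.7% and 29.4%. Over the genome the shares were 0.243% and 0.279% for EZH2, and 3.02% and 5.04% for H3K27me3. The contrast between the clusters was not tested.

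Protocadherins outside the clusters, which are adhesion molecules coded by separate genes, had EZH2 calls in both replicates at 3 of 12, beside 4.57% of all coding genes. They were PCDH17 (folds 5.52 and 4.75), PCDH20 (8.37 and 4.3) and PCDH19 (12.42 and 8.85). PCDH19 is the X-linked gene mutated in a female-limited epilepsy. H3K27me3 was called in both replicates at 3 of 12, beside 4.35% of all coding genes. These were PCDH15 (13.04 and 7.93), a gene of the hair-cell tip link, PCDH17 (4.84 and 8.28) and PCDH20 (12.4 and 11.27). PCDH17 and PCDH20 thus carried both calls in both replicates, and the share of all coding genes that did so was not computed. PCDH20 has no annotated strand, so both of its ends were searched. JARID2 was called in both replicates at 0 of the 12 in either line, near the shares of 0.0901% and 0.255% over all coding genes.

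Genes that act on or with the clustered protocadherins were taken as 2 lists. Among 15 regulators of their promoter choice, such as the insulator protein CTCF, cohesin subunits, SMCHD1, SETDB1 and the DNA methyltransferases, 0 had a start peak in both replicates of any group. The shares of all coding genes were 0.0901% for HepG2 JARID2, 0.255% for THLE-2 JARID2, 4.57% for EZH2 and 4.35% for H3K27me3, and 0 of 15 cannot be told apart from them. In replicate 1 alone JARID2 was called at 5 of the 15 in HepG2 (19.6% of all coding genes) and at 3 of the 15 in THLE-2 (3.14%). The 3 were DNMT3A, a DNA methyltransferase, SMC3, a cohesin subunit, and ZNF274, a zinc-finger protein, and replicate 2 called none of the 15 in THLE-2. Of 11 partners of the protocadherin intracellular tails, EZH2 was called in both replicates at 1, beside 4.57% of all coding genes. This was RET, a receptor tyrosine kinase (6.17 and 7.37). H3K27me3 was called in both replicates at 1, beside 4.35%. That gene was PTK2B, a focal adhesion kinase family member that gamma protocadherins bind (5.87 and 5.78). With 11 genes, a count of 1 cannot be told apart from those shares. PTK2B has no annotated strand, so both of its ends were searched. The 8 coding genes inside or next to the clusters that are no protocadherins of these clusters, among them SLC25A2, TAF7 and DIAPH1, had 0 start peaks in all 8 libraries, whose shares over all coding genes ran from 0.401% to 19.6%. With 8 genes, 0 is near those shares.

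The promoters share a motif and a base composition. CGCT was found on either strand of the 300 bases from 250 before to 50 after the start in 45 of 46 promoters (97.8%), where 81.2% of 15812 coding promoters hold it. Between 100 and 30 bases before the start, and on the gene's own strand, it stood in 43 of 46 (93.5%) against 27.3% of all. That stretch was set after the positions were seen. Those without it there were PCDHA9, PCDHB5 and PCDHB8, and all 19 matched gamma promoters had it. A core of the CTCF site (CCA, AG and GGC, each parted by NN), on either strand, was in 1 of 46 (2.17%), that of PCDHB9, against 2.69% of all.

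**Figure D5:**
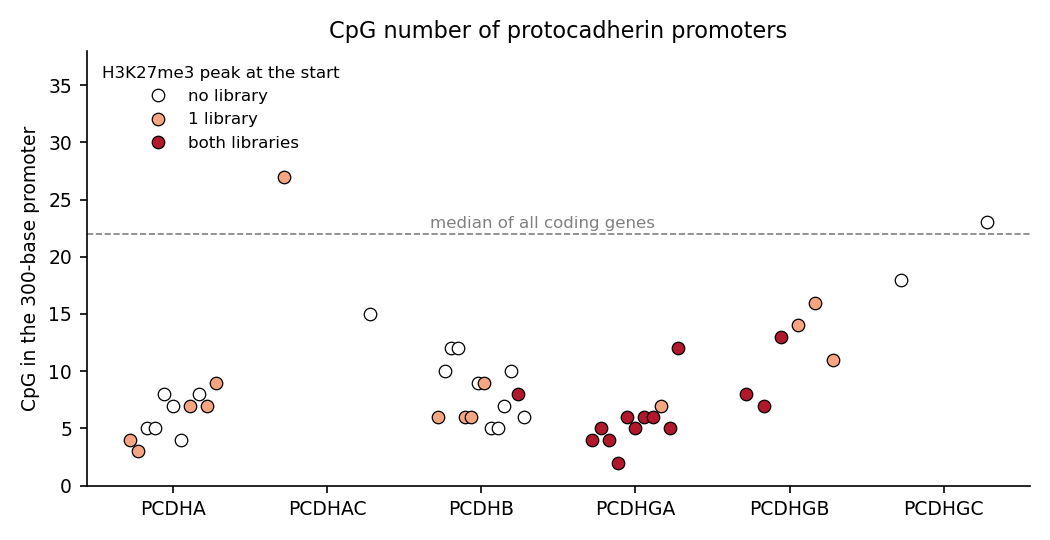
Number of CpG dinucleotides in the 300-base promoter (y axis) of the 46 matched genes by type (x axis), coloured by the number of H3K27me3 libraries with a peak at the start. The line marks the median of all coding promoters, 22; most clustered genes lie under it, and the C-type genes lie nearer to it.

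Clustered promoters held few CpG dinucleotides, with a median of 7 (lowest 2, highest 27) against 22 over all coding promoters, and a GC content of 39.7% against 62.7%. The types differed among themselves. PCDHGA promoters had a median of 5 and PCDHGB promoters 12, while the matched C-type genes had 18 in PCDHGC3, 23 in PCDHGC4, 27 in PCDHAC1 and 15 in PCDHAC2. Every matched A-type and B-type gamma gene, called in both H3K27me3 lists or not, had fewer CpG than the 2 matched PCDHGC genes. Over the 3 clusters together, promoters had medians of 8, 7 and 6 CpG for genes with a peak in 0, 1 and 2 H3K27me3 libraries (18, 14 and 14 promoters). PCDHA promoters had a median of 7 and no H3K27me3 peak in replicate 1. These are descriptions of types that also differ in position, and no test was made.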

How the data were processed

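The authors deposited 1 peak list per precipitated library. Tools and build named by the submitters' processing notes are cutadapt, Bowtie2, MACS 1.4.2 and GRCh38. Per the file headers, each precipitate was called against its matched input, on reads with a unique position, at a p of 1e-05, keeping 1 tag per position and scaling the larger library down. First exons of protocadherins resemble each other, and the effect of leaving out reads that map to several was not tested. Each deposited list gives a peak's tag count, its score (minus log10 of the p, times 10), its fold enrichment (a ratio over local input, used here only within a list) and its false discovery rate in percent.

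Peaks were set against RefSeq GRCh38.p14 with Python 3.11.15, pandas 2.3.3 and numpy 2.4.6. A gene counts when a peak overlaps, by at least 1 bp, the 2 kb on either side of its start. Over all coding genes the stranded start was used for 15818 and both ends for 4152 without a strand; the members, on the plus strand wherever the table lists them, were read from their lower coordinate. Clusters run from the lowest start to the highest end of their genes. Coverage is the sum of the lengths of a list's peaks, cut at the cluster ends, with no merging step. The overlap code was tested on simulated peaks. No count model was fitted, since lists hold nothing for regions without a peak; such a region is one where MACS called none, not one shown to be unbound.

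Values are given for up to 6 genes per cluster called in both replicates, by the worse of their 2 fold ranks; for C-type genes, the first and last gene of each cluster and genes with a JARID2 peak; for genes of the comparison lists called in both replicates; and for genes that a count or contrast rests on. The members and lists were chosen with earlier results of these data known. Alternatives changed the window, the score, the length of the list, the use of summits or of both gene ends, and the replicates. Requiring the peaks of both replicates to overlap each other was added after the data were seen.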

Additional observations from a re-analysis of the deposited data

How the results depend on the processing

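The 15 genes with H3K27me3 at the start in both replicates became 15 with a 1 kb window, 20 with 5 kb, 11 at a score of at least 100, 12 by summits, 15 with either gene end and 14 when the 2 peaks had to overlap each other. They became 0 among the top 2000 peaks of each list, those with the highest score, a setting under which 0.190% of all coding genes were called. Leaving out 1 replicate gave 17 to 29 genes for H3K27me3, the 29 being replicate 2 alone, 1 to 2 for EZH2, 1 for THLE-2 JARID2 and 0 to 1 for HepG2 JARID2. H3K27me3 coverage of the 3 clusters was 11.3%, with 9.61% to 13.1% in single replicates, 8.05% at a score of at least 100 and 1.58% among the top 2000. EZH2 coverage was 0.489%, with 0.378% to 0.600% in single replicates, 0 at a score of at least 100 and 0.317% among the top 2000. THLE-2 JARID2 coverage was 0 at a score of at least 100, and 0.113% to 0.190% in single replicates; HepG2 JARID2 ran from 0 to 0.308%. The JARID2 difference between lines turned to -0.0102 among the top 2000, was 0 at a score of at least 100, and ran from -0.190 to 0.195 without 1 replicate number. With the replicate number as a block it was 0.00239 (exact permutation p = 1.0); the numbers do not pair cultures of different lines by any label. The JARID2 libraries have 7945155 to 14627883 tags, and each JARID2 peak over these clusters rests on 13 to 19.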

Other observations

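Some pseudogenes annotated within the clusters carried some of the same calls, while PCDHA14 and PCDHGB8P had no start peak in any library. The share of all pseudogenes with a peak was not computed. PCDHB17P, in the beta cluster at chr5:141155782-141159061, had an H3K27me3 peak at its start in both replicates, with folds of 8.69 and 10.85. It also had 1 of the 2 beta-cluster JARID2 peaks of THLE-2 replicate 2, at chr5:141156793-141157316. That peak had 14 tags, a fold of 8.31 and a false discovery rate of 41.42%. PCDHB18P (fold 9.7), PCDHB19P (9.3) and PCDHGB9P (5.51) had H3K27me3 in replicate 2 alone. PCDHGB9P lies after PCDHGA12, where the gamma run ends. It also had a JARID2 peak in HepG2 replicate 1, with 17 tags, a fold of 8.6 and a false discovery rate of 1.13%. These pseudogenes were looked at after the peaks over the coding genes had been seen.

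Between the beta and gamma clusters, H3K27me3 peaks covered 3.23% of 81.1 kb in replicate 1 and 0.127% in replicate 2.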
